A study of Mus musculus with 222 samples.

Results

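Transcripts of 5 Rhox homeobox genes, Rhox1, Rhox6, Rhox9, Rhox10 and Rhox13, were followed in mouse primordial germ cells (PGCs), the embryonic precursors of eggs and sperm. They were taken as the rows with these symbols in 3 bulk and 2 single-cell count tables, and are 5 of 30 Rhox symbols and of 24391 gene symbols in all. All cells were sorted from embryonic gonads by the green fluorescence of an Oct4 reporter (OG in the labels), in mice of strain C57BL/6;129S1/SvlmJ. ECKO embryos, which the labels call Eed -/-, carry the Blimp1-Cre driver (BC), active in PGCs. Control embryos are called wild type. Both came from OG; Eed fl/fl mothers and BC; Eed fl/+ fathers, so Controls also inherit a floxed Eed allele from the mother. The EED protein belongs to the core of Polycomb repressive complex 2, which methylates histone H3 at silenced genes. The bulk groups were E11.5 XX (3 Control and 4 ECKO libraries), E11.5 XY (4 and 4) and E13.5 XY (4 and 3). At E12.5 there were 2 embryos for each sex and genotype, with 24 single cells from each. Nothing in the labels says how many embryos gave each bulk library, so p-values measure the spread between these libraries, which may be partly technical.

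The Rhox genes form a cluster on the X chromosome that encodes homeodomain transcription factors of the reproductive tissues. In the RefSeq gene table of assembly GRCm38.p6, Rhox1 lies at one end, followed by the Rhox2, Rhox3 and Rhox4 copies. Rhox5, Rhox6, Rhox7a, Rhox8 and Rhox9 come next, and Rhox10, Rhox11, Rhox12 and Rhox13 lie at the far end. Rhox6 and Rhox9 are related genes known from placenta and early germ cells. Rhox10 is known from prospermatogonia and spermatogonia, the male germ cells that follow PGCs, and Rhox13 from fetal and spermatogenic germ cells. Several germline genes, Rhox genes among them, are known to be kept silent by promoter DNA methylation in cells outside the germ line.

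Rhox10 and Rhox13 lie at the far end of the cluster, with Rhox11 and Rhox12, both at or near 0 in all samples, between them. In both sexes at E12.5 their means were higher in ECKO than in Control, although Rhox13 overlapped in XY and neither passed the edgeR test. Their promoter sequences are shown beside that of Rhox1, the third of the genes with an entry. Each is the 250 bases before the RefSeq transcription start, 5′ to 3′ on the gene's strand, in GRCm38.p6, with every CG dinucleotide in capitals. Rhox10 is chrX:38066225-38066474 on the plus strand, Rhox13 is chrX:38120590-38120839 on the plus strand, and Rhox1 is chrX:37222259-37222508 on the minus strand.
Rhox10: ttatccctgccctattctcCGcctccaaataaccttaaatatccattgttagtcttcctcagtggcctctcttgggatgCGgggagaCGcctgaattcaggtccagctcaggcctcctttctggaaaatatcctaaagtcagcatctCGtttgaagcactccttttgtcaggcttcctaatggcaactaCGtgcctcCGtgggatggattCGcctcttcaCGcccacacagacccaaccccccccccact
Rhox13: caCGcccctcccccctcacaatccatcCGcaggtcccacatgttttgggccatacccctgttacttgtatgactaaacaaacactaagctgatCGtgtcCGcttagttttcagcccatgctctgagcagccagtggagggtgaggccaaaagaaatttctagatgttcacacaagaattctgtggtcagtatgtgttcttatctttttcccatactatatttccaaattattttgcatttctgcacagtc
Rhox1: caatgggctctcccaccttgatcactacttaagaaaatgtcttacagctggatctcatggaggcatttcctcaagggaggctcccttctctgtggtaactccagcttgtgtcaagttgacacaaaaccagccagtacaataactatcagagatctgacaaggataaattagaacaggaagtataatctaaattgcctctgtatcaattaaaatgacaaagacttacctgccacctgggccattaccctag

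The CG dinucleotide, the usual site of DNA methylation, reads the same on both strands. Rhox10 had 8 in this window (GC content 52.4%), Rhox13 had 4 (45.2%) and Rhox1 had 0 (42.8%). Among 32841 RefSeq mouse promoters of the same length the median was 6, and 92.1% held at least 1. Counts as low as or lower than that of Rhox10 were found in 59.7% of them, against 44.4% for Rhox13 and 7.86% for Rhox1. Rhox10 and Rhox13 thus lay near the middle of this range and Rhox1 near its low end. Of the 5 genes, 3 had a promoter entry in the table, which left Rhox6 and Rhox9 named only.

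The libraries of E11.5 XX held 415291 to 7559310 counts, those of E11.5 XY 8607927 to 14974853, those of E13.5 XY 4903492 to 12425911, and the E12.5 embryo sums 14162553 to 28753681. At E12.5, 127 of 192 wells were kept as cells, 13 to 22 per embryo. Eed, the deleted gene, was lower in every ECKO library or embryo than in every Control of its sex and stage. It averaged 104 ± 27.3 against 33.5 ± 12.97 CPM (counts scaled to library size; SD, n = 4 and 4) in E11.5 XY and 92.8 ± 25.6 against 9.38 ± 5.61 CPM (SD, n = 4 and 3) in E13.5 XY. The 11 germ cell markers summed to 1344 CPM or more in every sample. Markers of gonadal supporting cells, of which 15 were listed, summed to 26.7 to 51.5 CPM in the E12.5 XX Control embryos and to 181 and 232 CPM in the XX ECKO embryos. Library 4 of E11.5 XX ECKO stood apart, with 1588 CPM of interstitial markers against 70.5 to 228 CPM in the rest of its group. Library 4 of E11.5 XY ECKO also held more of them, at 566 CPM against 60.7 to 131 CPM in the rest of its group. In E13.5 XY Control library 3 the supporting markers summed to 216 CPM, against 17.5 to 73.8 CPM in the rest of its group.

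Levels are given as CPM with TMM factors. Bulk and E12.5 values were scaled separately and come from different library kits, so levels are ordered within each set only. Reads are not corrected for transcript length, so where 1 gene is given as a share of several, it is a share of reads used to compare samples, not a level of 1 gene against another. Calls are those of edgeR with its low-count filter, unless another fit is named. In bulk libraries, fewer cells that express a gene and less RNA per cell cannot be told apart.

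**Figure D1:**
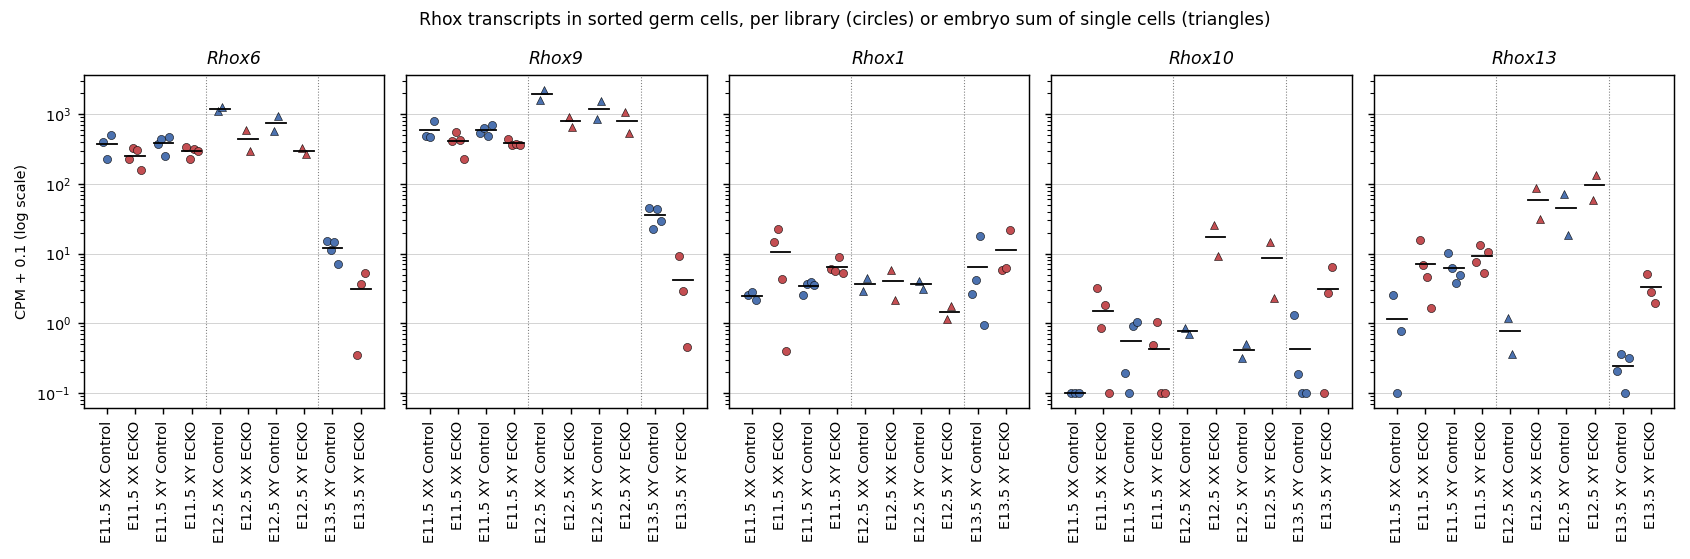
CPM + 0.1 on a log axis for the 5 genes, with 1 circle per bulk library, 1 triangle per E12.5 embryo and a line at each group mean; Control is blue and ECKO is red. Rhox6 and Rhox9 sit at 157 CPM or more at E11.5 and E12.5 and at no more than 45.2 CPM at E13.5, and among the E12.5 embryos Rhox10 is highest in ECKO in both sexes.

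Rhox6 and Rhox9 were abundant in PGCs of both sexes at E11.5 and E12.5 and fell by E13.5 in XY Controls. The 4 E11.5 XY Control libraries held 368, 443, 250.2 and 469 CPM of Rhox6. The 4 E13.5 XY Control libraries held 15.2, 11.2, 14.6 and 7.04 CPM. The groups lay far apart, with a mean 31.9-fold lower at E13.5 (log2 fold change -4.98 ± 0.460 SE, adjusted p = 1.4e-07, edgeR quasi-likelihood test). Rhox9 went from 528, 632, 483 and 692 CPM to 45.2, 22.3, 43.1 and 29.7 CPM, a mean 16.7-fold lower (-4.05 ± 0.477 SE, adjusted p = 2.6e-06). In this stage comparison 3 of the 5 genes were called, all lower at E13.5, against 31.5% of all 14447 genes tested (2279 higher and 2273 lower). The third was Rhox13, from 10.2, 6.13, 3.63 and 4.75 CPM to 0.109, 0.264, 0 and 0.213 CPM, a mean 42.1-fold lower (-5.28 ± 1.02 SE, adjusted p = 0.000508). Those E13.5 values rest on 5 counts over the 4 libraries. The E11.5 and E13.5 libraries are in separate tables, so stage and table cannot be told apart.

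Among the bulk groups, mean Rhox6 ran from 383 ± 98.1 CPM in E11.5 XY Control through 376 ± 137 in XX Control, 296.2 ± 49.7 in XY ECKO and 253 ± 77.5 in XX ECKO to 12.01 ± 3.77 in E13.5 Control and 3.00 ± 2.53 in E13.5 ECKO (SD). Each neighbouring pair of E11.5 groups in that order overlapped, and the E13.5 groups overlapped neither each other nor any E11.5 group. Mean Rhox9 ran from 589.7 ± 191 CPM in E11.5 XX Control through 584 ± 95.3 in XY Control, 405 ± 134 in XX ECKO and 381 ± 37.5 in XY ECKO to 35.1 ± 10.97 in E13.5 Control and 4.11 ± 4.56 in E13.5 ECKO (SD). Here too only the neighbours within E11.5 overlapped.

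The genotype comparisons ask how loss of EED alters these genes at each stage and sex. In E11.5 XY, Rhox9 was the single called gene of 4 tested, against 2.13% of 12497 genes (266, with 189 higher and 77 lower). The ECKO libraries held 437, 361, 367 and 358 CPM of Rhox9, all below the lowest Control value of 483 CPM. Its mean was 1.53-fold lower in ECKO (-0.60 ± 0.142 SE, adjusted p = 0.0374). The call did not hold with total-count scaling (-0.53, adjusted p = 0.0601) or with the replicate number as a block (-0.59, adjusted p = 0.0916). It was also lost when any 1 of Control 2, Control 4, ECKO 2, ECKO 3 or ECKO 4 was left out (-0.68 to -0.50, adjusted p up to 0.156). The dissociation stress list of 10 immediate early and heat shock genes moved with genotype in the same libraries. It summed to 171 to 289 CPM in Control and 402 to 712 CPM in ECKO. ECKO 4, the lowest in Rhox9, held 566 CPM of interstitial markers. Those markers summed to 48.0 to 165 CPM in Control and 60.7 to 131 CPM in the rest of ECKO. Of 10 interstitial markers tested, 9 had a positive log2 fold change in ECKO (median 2.28), and none was called. The part of these lists in the result was not tested.

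Rhox6 in E11.5 XY ECKO was 342, 228, 321 and 294 CPM, which overlapped the Control range (-0.35 ± 0.184 SE, adjusted p = 0.367). In E11.5 XX, Rhox9 was 485, 474 and 810.2 CPM in Control and 409, 555, 427 and 229.6 CPM in ECKO (-0.51 ± 0.265 SE, adjusted p = 0.417). Rhox6 was 404, 228 and 497 CPM in Control and 225, 327, 303 and 157 CPM in ECKO (-0.54 ± 0.281 SE, adjusted p = 0.422). Both genes overlapped between genotypes in XX. None of the 4 genes tested there was called by edgeR, against 0.172% of 11058 genes (19). The lowest value of both genes came from ECKO library 4, the library with the high interstitial markers. The difference in genotype effect between the sexes at E11.5 was -0.16 ± 0.353 (log2, SE) for Rhox6 and 0.11 ± 0.309 for Rhox9 (adjusted p = 0.980 and 0.984). The edgeR test of that difference found no call among 14185 genes (0%). Before adjustment 747 of them had p under 0.05, and DESeq2 made 1 call.

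**Figure D2:**
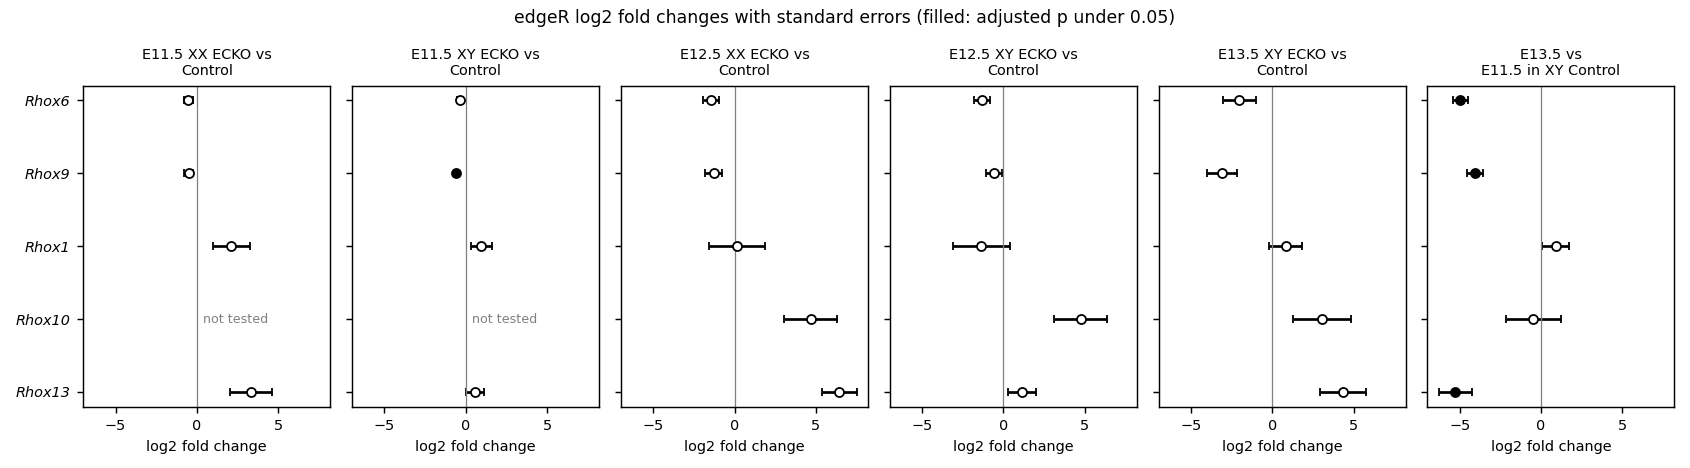
edgeR log2 fold changes (x axis) with standard errors for the 5 genes in the 5 genotype comparisons and in E13.5 versus E11.5 XY Control; filled points passed an adjusted p of 0.05. Rhox6 and Rhox9 lie below 0 in all 6 panels, and Rhox13 lies above 0 in each of the 5 genotype panels, but only Rhox9 in E11.5 XY is filled there.

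At E12.5, where counts of kept cells were summed per embryo, both XX ECKO embryos had less Rhox6 and Rhox9 than both XX Control embryos. Rhox6 was 1120.05 and 1285 CPM in Control and 599 and 293 CPM in ECKO, 2.70-fold lower in the mean (-1.43 ± 0.489 SE, adjusted p = 0.295). Rhox9 was 1613 and 2243 CPM in Control and 914 and 663 CPM in ECKO, 2.45-fold lower (-1.29 ± 0.518 SE, adjusted p = 0.363). The groups did not overlap for either gene, and neither passed the test over all genes. With 2 embryos a group, groups often fail to overlap by chance, and the share of all genes without overlap was not counted. This limit holds for each E12.5 comparison below. In XY, Rhox6 was 564 and 932 CPM in Control and 332 and 268 CPM in ECKO, again without overlap (2.49-fold lower, -1.32 ± 0.488 SE, adjusted p = 0.738). Rhox9 in XY overlapped, with 859 and 1537 CPM in Control and 1064 and 543 CPM in ECKO (-0.57 ± 0.512 SE, adjusted p = 0.860). None of the 5 genes was called by edgeR in either sex, where calls were few altogether: 0.0215% of 13956 genes in XX (3) and 0.00717% in XY (1). At an unadjusted p under 0.05, 1710 and 881 genes were found. DESeq2 called 910 genes in XX and 327 in XY, and among them Rhox6 in XX (-1.37, adjusted p = 0.0415).

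The germ cell markers also differed between the E12.5 XX groups, with sums of 3237 and 3249 CPM in Control against 1344 and 1924 CPM in ECKO, and the supporting markers were higher in ECKO as given above. Of the 15 supporting markers, 4 and 5 were at 0 in the ECKO embryos and 11 to 13 in the Control embryos. Of the 10 tested, 8 had a positive log2 fold change in XX ECKO, and none was called. The interstitial markers summed to 36.5 and 346 CPM in the XX ECKO embryos, against 13.6 and 7.01 CPM in the XX Control embryos. In XY the germ cell markers also separated the genotypes, at 3313 and 2693 CPM in Control and 1834 and 2416 CPM in ECKO. The dissociation stress list summed to 820 and 709.5 CPM in Control and 335 and 464 CPM in ECKO. Of 9 genes of that list tested in XY, 5 had a positive log2 fold change in ECKO (median 0.42), so the sum does not stand for the list as a set. The part of these lists in the Rhox6 and Rhox9 differences was not tested. Among cells with at least 5 of the 11 germ cell markers, a choice made after the data were seen that kept 30 of 30 XX Control and 21 of 26 XX ECKO cells, Rhox6 was 661 and 370 CPM and Rhox9 980 and 802 CPM in XX ECKO. These stayed below the Control embryos, which held at least 1141 and 1643 CPM on the same scale. The lists still differed in these cells. Germ cell markers summed to 1987 and 1593 CPM in XX ECKO and 3249 and 3237 CPM in XX Control. Supporting markers summed to 240 and 62.2 CPM in XX ECKO and 51.5 and 26.7 CPM in XX Control. The choice of cells thus cannot set the part of these lists apart from that of genotype.

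In E13.5 XY, where both genes were already low, they were lower still in ECKO. Rhox9 was 9.19, 2.79 and 0.354 CPM in ECKO, all below the lowest Control value of 22.3 CPM. The mean was 8.53-fold lower, which did not pass the test (-3.07 ± 0.911 SE, adjusted p = 0.0710). It passed in DESeq2 (-3.04, adjusted p = 0.00288) and without the low-count filter (-3.03, adjusted p = 0.0204). Those settings called 1696 and 1268 of all genes, against 604 in edgeR with the filter. Of the 7 fits that left out 1 library, only that without ECKO library 1 passed (-4.55, adjusted p = 0.0102). The highest adjusted p among them was 0.214. Rhox6 was 0.245, 3.55 and 5.22 CPM in ECKO against 7.04 to 15.2 CPM in Control, a 4-fold lower mean (-2.02 ± 1.02 SE, adjusted p = 0.257). None of the 5 genes was called by edgeR, against 4.9% of 12336 genes (604, with 369 higher and 235 lower), and 2795 genes had an unadjusted p under 0.05. The summed germ cell markers were 3649 to 4397 CPM in Control and 1924 to 2930 CPM in ECKO. The interstitial markers summed to 146 to 197 CPM in Control and to 158 to 441 CPM in ECKO. The 9 endothelial markers summed to 150 to 221 CPM in Control and 30.1 to 76.7 CPM in ECKO, without overlap. That sum does not stand for the list as a set. Of the 9, 3 to 6 were at 0 in each Control library. Of the 4 tested, 3 had a positive log2 fold change in ECKO (median 0.59), and none was called. The part of these lists in the Rhox values was not tested.

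Whether the genotype effect in XY differed between stages was tested with an interaction term, which called 1.2% of 14447 genes (173). For Rhox9 the effect was more negative at E13.5 than at E11.5 by 2.52 ± 0.663 on the log2 scale, just short of the threshold (adjusted p = 0.0653). For Rhox6 the value was -1.60 ± 0.609 (adjusted p = 0.177). For Rhox13 it was 3.77 ± 1.27 (adjusted p = 0.128), for Rhox10 3.599 ± 2.50 (adjusted p = 0.482) and for Rhox1 -0.10 ± 1.19 (adjusted p = 0.987). None of the 5 interactions passed in this fit. That of Rhox9 was called without the filter (-2.48, adjusted p = 0.0168) and with all 22 bulk libraries in 1 fit (-2.52, adjusted p = 0.0261). DESeq2 called it too (-2.45, adjusted p = 0.0145). Those settings called 306, 391 and 831 of all genes. Of the 15 fits that left out 1 library, only that without E13.5 ECKO 1 called it (-3.90, adjusted p = 0.000173). The highest adjusted p among them was 0.137. DESeq2 also called the interaction of Rhox13 (3.95, adjusted p = 0.0224).

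Single cells showed that Rhox6 and Rhox9 transcripts were general to the sorted cells at E12.5. A gene was scored as present in a cell at 10 CPM or more. Both were present in 126 of 127 cells. The remaining cell, from XX ECKO embryo 2, had 0.53 CPM of Rhox6 and 1.59 CPM of Rhox9. That cell carried 3 of 11 germ cell markers (168 CPM in sum), with 1070 CPM of supporting and 2790 CPM of interstitial markers. Embryos are numbered 1 and 2 here by their order in the tables, which is not tied to the embryo numbers of the sample titles.

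The medians over cells followed the embryo sums. The median cell held 931 and 1116 CPM of Rhox6 in the XX Control embryos and 549.7 and 242 CPM in the XX ECKO embryos. In XY the medians were 568 and 901 CPM in Control and 261 and 294 CPM in ECKO. The Rhox9 medians were 1565 and 2102 CPM in XX Control and 899 and 584 CPM in XX ECKO, without overlap. In XY they were 689 and 1365 CPM in Control and 829.7 and 554 CPM in ECKO, which overlapped.

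**Figure D3:**
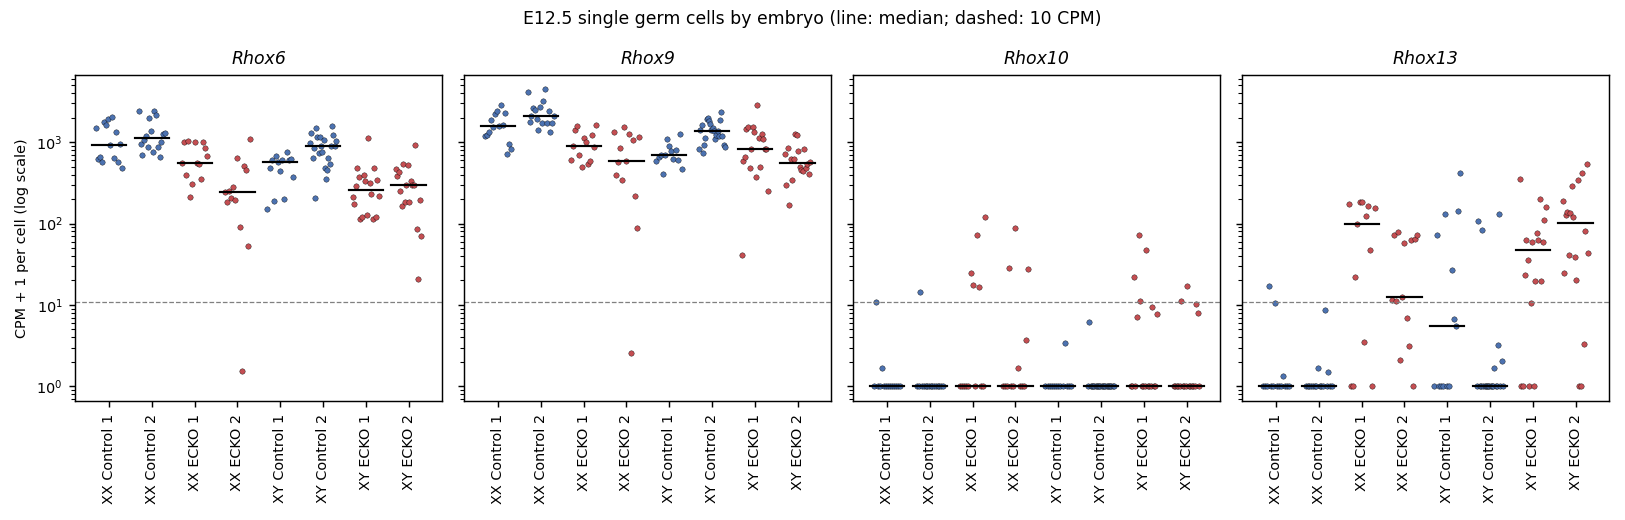
CPM + 1 per kept E12.5 cell on a log axis for 4 genes, by embryo, with the median as a line and 10 CPM as a dashed line; Control is blue and ECKO is red. Rhox6 and Rhox9 are above the dashed line in all but 1 cell, Rhox10 is at 0 in most cells of every embryo, and Rhox13 is above the line in most ECKO cells and few XX Control cells.

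Rhox6 and Rhox9 kept a like proportion to each other at E11.5, and at E12.5 the proportion was lower in the XY ECKO embryos. Rhox6 made up 32.5% to 45.4% of their summed counts in E11.5 XX Control, 35.5% to 41.5% in XX ECKO, 34.1% to 41.2% in XY Control and 38.7% to 46.6% in XY ECKO. The 8 E12.5 embryos lay between 23.8% and 41.0%. In XY they were at 39.6% and 37.7% in Control and at 23.8% and 33.1% in ECKO, without overlap and without a test. In XX they were at 41.0% and 36.4% in Control and at 39.6% and 30.7% in ECKO, which overlapped. In E13.5 XY Control it was 25.2%, 33.4%, 25.3% and 19.2%. In the 3 E13.5 XY ECKO libraries it was 2.60%, 55.9% and 93.7%, far apart from each other. These rest on few counts: 2, 33 and 59 for Rhox6 and 75, 26 and 4 for Rhox9 in the same order. Between single cells of 1 embryo the share was wide as well, from 3.55% to 83.9% over all embryos, with embryo medians of 23.8% to 42.4%. The pair are related in sequence, and how reads shared by both were counted is not given in the sources used here.

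**Figure D4:**
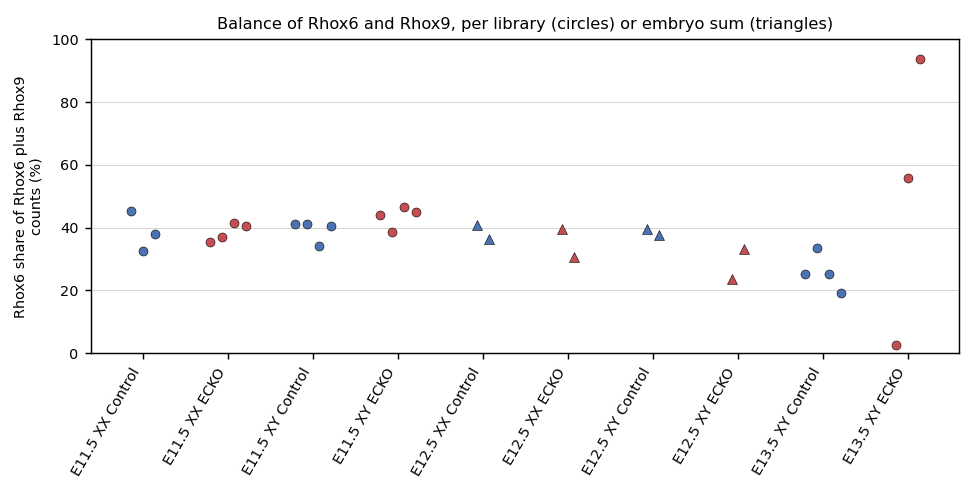
Rhox6 counts as a percent of Rhox6 plus Rhox9 counts (y axis), with 1 circle per bulk library and 1 triangle per E12.5 embryo; Control is blue and ECKO is red. The points lie between 19.2% and 46.6% in all groups but E13.5 XY ECKO, whose 3 libraries lie at 2.60%, 55.9% and 93.7%.

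Rhox13 had the largest difference of the 5 genes between genotypes, in XX embryos at E12.5. The Control embryos held 1.09 and 0.258 CPM and the ECKO embryos 86.4 and 31.0 CPM, an 87.0-fold higher mean. The groups were far apart, but the test over all genes did not call it (6.43 ± 1.08 SE, adjusted p = 0.0893), although only 14 of 13956 genes had a smaller p. It was called in DESeq2 (6.49, adjusted p = 3.9e-10) and without the low-count filter (6.43, adjusted p = 1.6e-11). Those settings called 910 and 566 of all genes, against 3 in edgeR with the filter. The 8 fits that left out 1 embryo gave 5.51 to 7.80. Each leaves 1 embryo in a group, so only the fold change is given. In cells with at least 5 germ cell markers Rhox13 was 97.2 and 38.0 CPM in XX ECKO, against 1.11 and 0.253 CPM in XX Control.

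The cells show how it was spread. In XX Control embryo 1, Rhox13 was present in 1 of 14 cells (7.14%, exact Clopper-Pearson 95% interval 0.181% to 33.9%). In embryo 2 none of 16 cells reached 10 CPM (exact interval up to 20.6%), although 3 of them had some Rhox13 counts. Each XX ECKO embryo had it in 9 of 13 cells (69.2%, 38.6% to 90.9%). Such intervals speak for counting error among the cells of a single embryo, and the reads carry no molecular identifiers. The 18 XX ECKO cells with Rhox13 carried a median of 8 of 11 germ cell markers, as did the 8 cells without it. Supporting markers summed to a median of 46.8 CPM in the cells with Rhox13 and 36.9 CPM in those without, and 5 of the 18 had under 10 CPM. The germ cell markers summed to a median of 1720 CPM with Rhox13 and 1530 CPM without.

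In XY at E12.5, Rhox13 was already detected in Controls, at 70.6 and 18.3 CPM, and overlapped with ECKO at 59.4 and 136 CPM (1.13 ± 0.850 SE, adjusted p = 0.815). The share of cells with Rhox13 did separate the genotypes, without a test: 5 of 13 (38.5%, 13.9% to 68.4%) and 3 of 22 (13.6%, 2.91% to 34.9%) in Control against 13 of 18 (72.2%, 46.5% to 90.3%) and 15 of 18 (83.3%, 58.6% to 96.4%) in ECKO. In cells thinned to 50000 counts each, with any count taken as present, these were 46.2%, 18.2%, 66.7% and 77.8%. Of all 55 cells with Rhox13, 46 (83.6%) had Dazl and 42 (76.4%) had Ddx4, both RNA-regulating genes of germ cells, against 85.8% and 81.9% of all 127 cells. These totals mix sexes and genotypes. Dazl was in 88.9% of the XX ECKO cells with Rhox13 and 88.5% of all XX ECKO cells. In XY ECKO these were 78.6% and 72.2%, and in XY Control 87.5% and 94.3%. For Ddx4 they were 88.9% and 88.5%, 67.9% and 69.4%, and 75% and 77.1% in the same order. XX Control had 1 cell with Rhox13. In these 3 groups the cells with Rhox13 thus had Dazl and Ddx4 about as often as all cells of their group.

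The sexes differed in Rhox13 among Controls, in the same direction at both ages. At E12.5 the mean of XX was 65.9-fold below that of XY (-6.02 ± 1.06 SE, adjusted p = 0.164), with 12 genes at a smaller p. The fold is not general to XY cells. The median cell held 4.48 and 0 CPM in XY Control embryos 1 and 2, and 0 CPM in both XX Control embryos. A single cell gave 37.3% and 44.3% of the Rhox13 counts of the XY Control embryos. The comparison called 0.043% of 13956 genes (6), none of them among the 5, and 796 genes had an unadjusted p under 0.05. DESeq2 called Rhox13 (-6.03, adjusted p = 1.4e-08), among 275 genes in all. The fits without 1 embryo, which leave 1 embryo in a group, gave -7.40 to -4.72. At E11.5 the XX Controls held 2.46, 0 and 0.681 CPM, below all 4 XY Controls (-3.18 ± 1.12 SE, adjusted p = 0.318), in a comparison that called 0.296% of 14185 genes (42). The XX value rests on 3 counts. The ratio of XY to XX was 5.88 for library means and 9.78 over pooled counts, the latter with an exact interval of 3.31 to 47.7 that takes amplified reads as independent and leaves out the spread between libraries. The XX and XY libraries of E11.5 are in separate tables, so sex and table cannot be told apart there. Rhox6 and Rhox9 were higher in both XX than in both XY Control embryos at E12.5 and were not called (0.68 ± 0.482 and 0.69 ± 0.513, log2, XX over XY, SE, adjusted p = 0.921 and 0.947 in edgeR). At E11.5 the same differences were -0.05 ± 0.260 and 0.00 ± 0.227, and the groups overlapped.

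Whether the genotype effect on Rhox13 differed between XX and XY at E12.5 was tested directly. The difference was 5.30 ± 1.28 on the log2 scale (adjusted p = 0.788, with 29 genes at a smaller p). No gene of 13956 (0%) was called by edgeR, where 681 had p under 0.05 before adjustment, while DESeq2 called 135, among them Rhox13 (5.34, adjusted p = 0.00403). At E11.5 the same difference was 2.86 ± 1.33 (adjusted p = 0.900). Rhox13 in E11.5 XX ECKO was 15.4, 6.72, 4.51 and 1.53 CPM, which reached into the Control range in library 4 (3.35 ± 1.30 SE, adjusted p = 0.283). The ratio of library means was 6.71. Over pooled counts it was 17.2, with an exact interval of 5.78 to 84.4 that covers counting error only and not the spread between libraries. ECKO library 1 gave 122 of the 149 counts, and without it the pooled ratio was 6.52. In E11.5 XY it was 7.44, 13.2, 5.19 and 10.3 CPM in ECKO and overlapped with Control (0.57 ± 0.578 SE, adjusted p = 0.688).

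At E13.5, Rhox13 was 5.02, 2.69 and 1.86 CPM in XY ECKO, all above the highest Control value of 0.264 CPM. The mean was 21.8-fold higher (4.33 ± 1.42 SE, adjusted p = 0.0956). It was called in DESeq2 (4.53, adjusted p = 0.0461) and in the edgeR fit over all 22 bulk libraries (4.3, adjusted p = 0.00616), but in none of the fits that left out 1 library. Over the bulk groups, mean Rhox13 ran from 9.02 ± 3.47 CPM in E11.5 XY ECKO through 7.03 ± 5.94 in E11.5 XX ECKO, 6.17 ± 2.85 in E11.5 XY Control, 3.19 ± 1.64 in E13.5 XY ECKO and 1.05 ± 1.27 in E11.5 XX Control to 0.146 ± 0.117 in E13.5 XY Control (SD). Every neighbouring pair in that order overlapped.

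Rhox10 was at or near 0 in all Control groups, and at E12.5 it was higher in each ECKO embryo than in each Control embryo of its sex. In XX it was 0.751 and 0.589 CPM in Control and 25.3 and 9.07 CPM in ECKO, a 25.6-fold higher mean (4.67 ± 1.63 SE, adjusted p = 0.299). In XY it was 0.221 and 0.396 CPM in Control and 14.8 and 2.21 CPM in ECKO, 27.5-fold higher (4.75 ± 1.65 SE, adjusted p = 0.719). Neither sex overlapped between genotypes, which is frequent by chance with 2 embryos a group. Neither passed the edgeR test, and both passed in DESeq2 (4.74, adjusted p = 0.00889 in XX and 4.80, adjusted p = 0.0259 in XY). The 2 sexes differed in this effect by -0.07 ± 1.71 (log2, SE, adjusted p = 1).

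Few cells carried Rhox10. The XX ECKO embryos had it in 5 of 13 cells (38.5%) and 3 of 13 cells (23.1%). The XY ECKO embryos had it in 4 of 18 cells (22.2%) and 2 of 18 cells (11.1%). XX Control embryos gave 0 of 14 cells (limit 21.4%) and 1 of 16 (6.25%), and XY Control embryos 0 of 13 (limit 23.1%) and 0 of 22 (limit 13.6%), each limit being 3 cells of the total. In each ECKO embryo a single cell gave a large part of the Rhox10 counts: 62.5% and 49% in XX and 67.5% and 60% in XY. Of the 15 cells with Rhox10, 12 also had Rhox13, among them all 8 in XX ECKO and 4 of 6 in XY ECKO. Rhox13 itself was present in 69.2% of all XX ECKO cells and 77.8% of all XY ECKO cells, so this overlap is read as a description only.

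In bulk, Rhox10 was too low for a test at E11.5. The 3 XX Control libraries had no count, and the 4 XX ECKO libraries had 25, 1, 5 and 0 counts. Over pooled counts this is 2.14 CPM against a limit of 0.598 CPM (3 counts over the Control group), at least 3.58-fold higher. Library 1 gave 25 of the 31 counts, and without it the value was 0.866 CPM, at least 1.45-fold higher. ECKO library 4 was at 0 like the Controls. In E11.5 XY it was 0.0949, 0, 0.814 and 0.924 CPM in Control and 0.388, 0.942, 0 and 0 CPM in ECKO, without separation. In E13.5 XY it was 1.195, 0.0880, 0 and 0 CPM in Control and 0, 2.58 and 6.28 CPM in ECKO, which overlapped (3.07 ± 1.79 SE, adjusted p = 0.329). The stage comparison in XY Control gave -0.48 ± 1.69 (adjusted p = 0.857).

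Rhox1 was low in most samples and followed neither pattern. In E11.5 XY it was 2.47, 3.502, 3.82 and 3.43 CPM in Control and 5.82, 5.46, 8.87 and 5.23 CPM in ECKO, without overlap (1.92-fold higher mean, 0.95 ± 0.654 SE, adjusted p = 0.509). In E11.5 XX it was 2.46, 2.66 and 2.04 CPM in Control and 14.5, 22.4, 4.17 and 0.306 CPM in ECKO, a wide spread around the Control values (2.12 ± 1.15 SE, adjusted p = 0.441). At E12.5 it was 2.80 and 4.34 against 5.75 and 2.04 CPM in XX, and 3.98 and 3.02 against 1.05 and 1.69 CPM in XY. The E12.5 tests gave 0.13 ± 1.72 in XX and -1.35 ± 1.76 in XY (adjusted p = 0.998 and 0.937). Rhox1 was present in 1 to 3 cells per embryo.

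In E13.5 XY, Rhox1 was 2.50, 4.05, 17.5 and 0.853 CPM in Control and 5.63, 6.02 and 21.7 CPM in ECKO (0.82 ± 1.04 SE, adjusted p = 0.684). Library 3 was the highest in both groups, and without ECKO 3 the fold change was -0.09. The stage comparison in Control was 0.91 ± 0.828 (adjusted p = 0.426) and -0.40 without Control 3, so both directions rested on 1 library. Control 3 is the library with 216 CPM of supporting markers, although 9 of those 15 markers were at 0 there. Among them Wt1 was at 234 CPM with TMM factors, which the sum does not use, and Gata4 and Amh were at 0. Control 3 also held 57.1 CPM (441 counts) of Rhox8, a gene of Sertoli cells, against 0.543 to 2.35 CPM in the other 3 libraries of its group. Over the bulk groups, mean Rhox1 ran from 11.1 ± 9.15 CPM in E13.5 XY ECKO and 10.3 ± 10.03 in E11.5 XX ECKO down to 2.39 ± 0.317 in E11.5 XX Control (SD), and every neighbouring pair overlapped.

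The remaining 25 Rhox symbols included none that was called in a genotype comparison, of 10 tested in E11.5 XY, 7 in E11.5 XX, 4 in E13.5 XY and 16 in each sex at E12.5. Rhox8, too low for the filter in E13.5 XY, was called there without it (-6.39, adjusted p = 0.0158), a value that rests on Control 3. In the stage comparison Rhox4a (-3.87, adjusted p = 0.0275) and Rhox4c (-5.53, adjusted p = 0.00157) fell, of 12 tested. Rhox4c in E11.5 XY was -1.86 ± 0.581 in ECKO (adjusted p = 0.110). Rhox7a, a neighbour of Rhox6, was at 4.62 ± 2.22 CPM (SD, n = 3) in E13.5 XY ECKO (2.53 ± 1.21 SE against Control, adjusted p = 0.235). The Rhox2, Rhox3 and Rhox4 genes are near-identical copies, so their separate counts are uncertain. The summed Rhox2 copies were 17.8 ± 5.18 CPM in E11.5 XY Control and 18.6 ± 9.72 CPM in ECKO, and the summed Rhox4 copies 20.3 ± 5.17 and 10.9 ± 2.89 CPM (SD, n = 4 and 4). At E12.5, Rhox7a ranged from 2.34 to 39.7 CPM and Rhox8 from 0.221 to 14.8 CPM over the 8 embryos, with overlap between genotypes in both sexes. Rhox3a reached 7.15 CPM in 1 XX ECKO embryo. Rhox5 is not among the 30 Rhox symbols, so sums over the family leave it out. Of the summed CPM of these symbols, Rhox6 and Rhox9 gave a mean of 92.4% in E11.5 XX Control and 94.6% in E11.5 XY Control. At E13.5 the mean was 65.1% in XY Control and 23.1% in XY ECKO. E13.5 XY Control 3 held 43.0%, against 67.0% to 75.8% in the rest of its group. The sum also reflects transcript length.

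Of 15 genes beside the cluster on the X chromosome, 11 or 12 were tested in each genotype comparison, and none was called by edgeR. In the stage comparison 4 rose and 2 fell of 13, with Rpl39 (-1.51, adjusted p = 3.2e-05), a ribosomal protein gene, and Ndufa1 (-3.31, adjusted p = 0.000117), a mitochondrial complex subunit, lower at E13.5. Upf3b, of nonsense-mediated RNA decay, was higher (1.83, adjusted p = 0.00117). X-linked genes as a whole had a median log2 difference of 0.52 between XX and XY Control at E12.5, where all genes had 0, and none was called by edgeR.

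A second list held 20 germline genes known to be silenced by promoter methylation outside the germ line, as Rhox genes are. It was chosen with earlier results of these data known, so its counts are a description only. In E13.5 XY ECKO 10 of 20 rose, against 2.99% of all genes tested, among them Taf7l (6.79, adjusted p = 0.00124), a germ cell transcription factor subunit, Tex101 (7.06, adjusted p = 0.00328), a germ cell surface protein, and Tdrd1 (3.23, adjusted p = 0.00535), of the piRNA pathway. Rhox13, Rhox10 and Rhox1 had values of the same sign in that comparison (4.33, 3.07 and 0.82). Rhox9 and Rhox6 had the opposite sign (-3.07 and -2.02). None of these Rhox genes passed. In the stage comparison 13 of these 20 rose and 1 fell (15.8% and 15.7% of all genes), while Rhox6, Rhox9 and Rhox13 fell. Tdrd1 was also called at E11.5, in XY (2.26, adjusted p = 0.0127) and in XX (3.86, adjusted p = 0.00478).

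Genes with the most similar pattern were ranked by Pearson correlation of log2(CPM + 1) over the 22 bulk libraries, among 10423 genes with a mean of at least 5 CPM. The nearest to Rhox6 were Lgals1 (0.975), Col18a1 (0.974) and Ubxn1 (0.973), and the nearest to Rhox9 were Dynll2 (0.97), Dsp (0.965) and Diap1 (0.965). These values carry the gap between E11.5 and E13.5 libraries: within the 15 E11.5 libraries they were 0.693, 0.344 and 0.71 for Rhox6 and 0.457, 0.428 and 0.612 for Rhox9. Rhox6 and Rhox9 correlated with each other at 0.939 over all 22, at 0.844 within E11.5 and at 0.51 within the 7 E13.5 libraries. Rhox1 was nearest to Ap2a1 (0.799), Fam53c (0.717) and Pxmp2 (0.712). Rhox10 and Rhox13, with means of 0.861 and 4.64 CPM over the 22 libraries, were too low for this ranking.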

How the data were processed

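RNA was measured in 22 bulk libraries and 192 single-cell wells of sorted PGCs. The labels' protocols name RNeasy Micro extraction with Ovation RNA-seq V2 amplification for bulk libraries and Smart-seq2, which has no molecular identifiers, for E12.5 cells. The deposited tables hold raw counts, whole numbers per gene symbol. The authors used HISAT2, edgeR and the mm9 build, per the submitters' processing notes. How reads were assigned to genes, and whether strand was used, is not given in the sources used here. The 8 bisulfite libraries were not analysed here.

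Counts were tested with edgeR 4.0.16 (R 4.3.3; filterByExpr, TMM, quasi-likelihood F test), with Benjamini-Hochberg adjustment over all genes tested and a call at an adjusted p under 0.05. DESeq2 1.42.0 was an alternative. Bulk tables were fitted alone, and stage, sex and interaction comparisons over the joined tables. At E12.5, wells with at least 50000 counts and 1500 genes were kept, and their sums for each of the 8 embryos entered 1 fit with sex by genotype groups. The 65 wells left out had a median of 1717 counts. Doublets were not called. 1 XX cell titled ECKO but labelled wild type was kept with ECKO. Standard errors are the fold change over the root of F.

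Replicate numbers did not pair libraries (correlations of deviations from -0.172 to 0.163), and replicates differed beyond counting noise (chi-square per degree of freedom 4.49 to 192). Named genes were the 5 Rhox genes and Eed in every comparison, other Rhox symbols called or at 5 CPM or more (copies of Rhox2 and Rhox4 as sums), up to 3 called genes of a list by smallest p, and the 3 genes of highest correlation. The members and lists were chosen with earlier results of these data known. Alternatives were other scalings, DESeq2, no low-count filter, the replicate block, 1 fit over all 22 bulk libraries, other cell limits and each library left out. The fits were tested on simulated data.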

Additional observations from a re-analysis of the deposited data

Results flagged for a closer look

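Of 28 sets of values checked, each from a group of 4 libraries, 4 held a library whose gap to the nearest of the rest was a large part of the group's range. For independent normal values chance gives about 1 in 20. These sets share libraries and some hold values at 0, so that rate does not apply and 4 is not read as an excess. Rhox1 was 8.87 CPM in E11.5 XY ECKO library 3, against 5.23 to 5.82 CPM in the other 3. Rhox9 was 437 CPM in E11.5 XY ECKO library 1, against 358 to 367 CPM in the other 3. Rhox10 was 1.195 CPM in E13.5 XY Control library 1, against 0 to 0.0880 CPM in the other 3. Rhox6 made up 34.1% of Rhox6 plus Rhox9 counts in E11.5 XY Control library 3, against 40.4% to 41.2% in the other 3.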

How the results depend on the processing

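The stage calls of Rhox6, Rhox9 and Rhox13 kept their direction and side of the threshold under every alternative run. Values of Rhox10 and Rhox13 in E11.5 XX Control (415291 to 3088644 counts per library) and in E13.5 XY Control rest on few counts. The cause of the changes below was not tested.

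Counts of called genes moved with DESeq2, with no low-count filter and with all 22 bulk libraries in 1 fit. In E11.5 XY, 266 became 771, 457 and 23, in E11.5 XX 19 became 315, 217 and 9, and in E13.5 XY 604 became 1696, 1268 and 2987. For XX against XY Control at E11.5, 42 became 169, 65 and 24, and for the stage interaction 173 became 831, 306 and 391. At E12.5, DESeq2 and no filter gave 910 and 566 for XX (3), 327 and 150 for XY (1), 275 and 146 for XX against XY Control (6), and 135 and 84 for the sex interaction (0). Germ-marker cells, chosen after seeing the data, gave 5 in XX. DESeq2 gave 1 for the E11.5 sex interaction (0).

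With the replicate number as a block, which did not mark paired libraries, calls were 151 in E11.5 XY, 37 in E11.5 XX, 68 in E13.5 XY and 46 for the stage interaction. The block took Rhox9 in E11.5 XY to -0.59 (adjusted p = 0.0916), in XX against XY at E11.5 to -0.064, and the Rhox1 stage interaction to 0.03. It changed no other of 31 results of named genes. For E12.5: No paired analysis was possible because its columns carry embryo names that are not tied to the titles' numbers, and only 1 XX Control and 1 XX ECKO embryo share the first part of their names, which no label explains.

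Rhox9 in E11.5 XY was also not called with total-count scaling (-0.53, adjusted p = 0.0601) or all 22 libraries (-0.62, adjusted p = 0.643). With all 22 libraries in E13.5 XY, Rhox6 (-1.96), Rhox9 (-3.14) and Rhox13 (4.3) were called, as was the Rhox9 stage interaction (-2.52, adjusted p = 0.0261). DESeq2 called Rhox9 (-3.04) and Rhox13 (4.53) in E13.5 XY, Rhox6 (-1.37), Rhox10 (4.74) and Rhox13 (6.49) in E12.5 XX, Rhox10 (4.80) in E12.5 XY, Rhox13 in XX against XY at E12.5 (-6.03), the Rhox9 (-2.45) and Rhox13 (3.95) stage interactions and the Rhox13 sex interaction at E12.5 (5.34). Without a filter, Rhox9 in E13.5 XY (-3.03), its stage interaction (-2.48), and Rhox13 in E12.5 XX (6.43), between sexes (-6.02) and in the sex interaction (5.29) were called.

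Signs turned only for uncalled values. XX against XY at E11.5 gave Rhox6 0.046 in DESeq2 and with RLE scaling, and Rhox9 -0.034 with total counts and -0.0048 over all 22 libraries. The Rhox1 stage interaction was 0.27 with total counts. Rhox1 in E12.5 XX was -0.030 without cell 24. The E12.5 sex interaction of Rhox10 was 0.055 with total counts and 0.030 in germ-marker cells, that of Rhox6 0.031 in germ-marker cells, and that of Eed 0.025 with total counts.

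Leaving out 1 library gave 64 to 333 calls in E11.5 XY, 0 to 26 in E11.5 XX, 94 to 2141 in E13.5 XY, 30 to 1267 for the stage interaction and 0 to 1 for the E11.5 sex interaction. Leaving out 1 embryo gave 46 to 241 in E12.5 XX, 3 to 53 in XY, 16 to 100 between sexes and 0 to 37 for the sex interaction. Ranges for single genes with a change of sign or call were -0.68 to -0.50 for Rhox9 in E11.5 XY, -4.55 to -2.53 in E13.5 XY and -3.90 to -1.96 for its stage interaction. For Rhox13 they were 5.51 to 7.80 in E12.5 XX and -7.40 to -4.72 between sexes. For Rhox1 they were -0.79 to 0.69 in E12.5 XX, -0.40 to 1.28 between stages, -0.089 to 2.23 in E13.5 XY, -1.04 to 1.21 for the stage interaction and -0.30 to 0.31 between sexes at E12.5. For Rhox10 they were -3.29 to 0.076 between stages and -1.02 to 1.87 for the E12.5 sex interaction. Between sexes at E11.5 they were -0.30 to 0.24 for Rhox6 and -0.28 to 0.16 for Rhox9, and for the sex interaction -0.47 to 0.071 (E11.5, Rhox6), -0.11 to 0.37 (E11.5, Rhox9) and -0.74 to 0.31 (E12.5, Rhox6). Eed ranged from -0.29 to 0.018 between stages, -0.65 to 0.98 for the E12.5 sex interaction, -1.99 to -1.68 in E11.5 XX and -3.71 to -2.96 in E13.5 XY. Of 40 shares of cells, 11 moved with any count taken as present, 5 after thinning and 1 with at least 200000 counts per cell.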
